A study of Solanum lycopersicum with 2 samples.

Results

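MAP kinases, calcium-regulated kinases and immune receptors were examined in young primary leaves of tomato (Solanum lycopersicum) seedlings. The members are the loci whose gene symbol begins with a name of these families, which gave 36 of 17803 gene loci: 26 kinases, 8 receptors, the calcium sensor CBL10, and PTOX. The symbol PTOX matched only by its first letters, being that of a plastid terminal oxidase. It is counted in the summaries over all members and described last. Leaves of plants overexpressing SlRBZ (library OV-5-1) were compared with wild-type leaves (library CK-1), with 1 library per genotype. Apart from the transgene the labels name no treatment, and the sources used here do not give the promoter that drives it, the cultivar or the number of plants pooled. The design text speaks of duplicates, but only 1 library of each was analysed here, so no difference has a replicate check and none was tested.

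Plant immunity starts at 2 kinds of receptor. Receptors at the cell surface, with leucine-rich or LysM ectodomains, recognise microbial or apoplastic molecules and signal with co-receptor kinases of the SERK family. Receptors inside the cell, such as Prf, guard kinases that pathogen effectors target. Downstream, calcium sensors and calcium-regulated kinases, cascades of MAP kinases and NADPH oxidases carry the signal, and the same cascades also serve growth, wounding and salt stress.

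Levels are FPKM, fragments scaled to 1 kb and to a library of 1 M (mega) fragments, which are scaled to length and so can be set side by side between genes. Differences are of log2(FPKM + 1), overexpressor minus wild type, a scale that understates the change of low genes. Folds given below are likewise ratios of FPKM + 1, smaller than the ratios of the FPKM printed beside them. A locus with a mean of at least 1 FPKM was called higher or lower at a 2-fold difference on that scale. Of the 36 members, 34 reached that mean, and EIX1 and EIX2 did not. The spacing of low values reveals what 1 fragment was worth, and from it the totals were 7.47 M fragments for wild type and 14.2 M for SlRBZ leaves, so the wild-type library carries the larger counting error. For a locus with an effective length of 1 kb, an assumed length used throughout, 5 FPKM had a 95% Poisson interval from 3.53 to 6.88 in wild type and from 3.91 to 6.30 in the overexpressor. These intervals cover counting error only.

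The labelled tissue was met by its markers, and these moved with genotype. The 22 measured mesophyll loci (Rubisco small subunit, chlorophyll-binding and photosystem genes) summed to 310277 FPKM in wild-type leaves and 49325 in SlRBZ leaves. As deposited, 21 of them were at least 2-fold lower. Beside them, 15.0% of all gene loci were lower, and 39.5% of those averaging 100 FPKM or more. The lists for trichome, root, meristem, fruit and vasculature had at most 2 measured loci each. With bulk RNA, fewer cells of a type and less RNA per cell cannot be told apart, and the part of leaf composition in the differences below was not tested.

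At least 2-fold higher were 4 of 34 (11.8%), namely HCR2-0B, MAPK4, HCR9-SC0A and MAPK8, beside 11.6% of all gene loci. At least 2-fold lower were 2 of 34 (5.88%), namely CBL10 and CIPK14, beside 15.0% of all gene loci. The share higher is that of the background, so these counts show no excess of higher loci among the members. The median difference was 0.04 (0.015 without PTOX), against -0.05 over all gene loci. Within a difference of 0.5 in either direction lay 21 of the 34 members (61.8%) and 48.0% of all gene loci. These splits follow the scaling: with both libraries brought to equal sums after leaving out the 100 most abundant gene loci, which moved the median of all gene loci to 0.54, 8 members were higher and none lower, beside 25.9% and 6.24% of all gene loci. On that scale 11 of the 34 members and 34.9% of all gene loci lay within 0.5. At equal sums over all loci all 34 members were at least 2-fold higher, beside 16441 of 17631 gene loci. The median of all gene loci was then 2.24, so that count does not set the members apart.

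**Figure D1:**
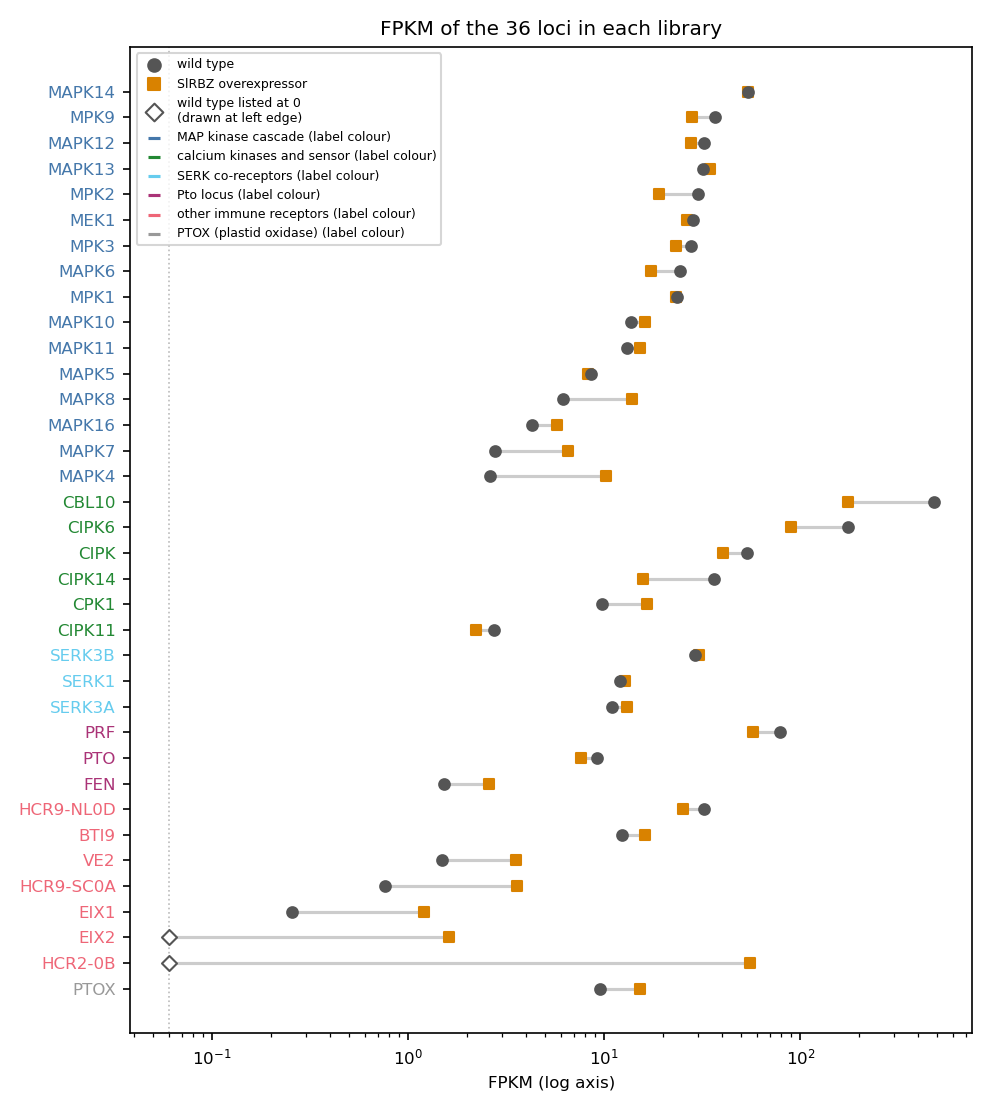
FPKM of each of the 36 loci (log axis) in wild type (circles) and the SlRBZ overexpressor (squares), grouped by role. Wild-type values listed at 0 are drawn as open diamonds at the left edge. CBL10 and CIPK6 have the highest levels in both libraries, and HCR2-0B is listed at 0 in wild type and reads 55.5 FPKM in the overexpressor.

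HCR2-0B showed the sharpest contrast between the libraries. It is a member of the Hcr2 family, homologues of the Cf-2 gene for resistance to the leaf mould Cladosporium fulvum, which encode receptor-like proteins with leucine-rich repeats and without a kinase domain. Its locus (chromosome 6, 2161344 to 2164746, minus strand, coordinates of the deposited table) was listed at 0 FPKM in wild-type leaves and read 55.5 in the overexpressor. That placed it 4th of the 36 members in the overexpressor. If the whole span was counted, the overexpressor value stands for at most 2532 fragments, and 3 fragments in wild type would have read 0.125 FPKM.

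No fold is given for HCR2-0B, because an exact 0 can be a failed estimate as well as an absence of reads. In wild type 305 gene loci were listed at 0, against 15 in the overexpressor. Of those 305, the median level in the overexpressor was 4.26 FPKM, 23 read 50 FPKM or more, and HCR2-0B ranked 22nd. The highest of them read 116222 FPKM. The zero is therefore shared with some abundant loci. Hcr2 genes lie in arrays of near-identical copies whose number differs between tomato lines, and HCR2-0B is the only Hcr2 symbol in the table, so how reads divided among copies was not tested. All 6 gene loci within 50 kb of it were detected in wild type, with differences from -0.90 to 0.55, none of them 2-fold.

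**Figure D2:**
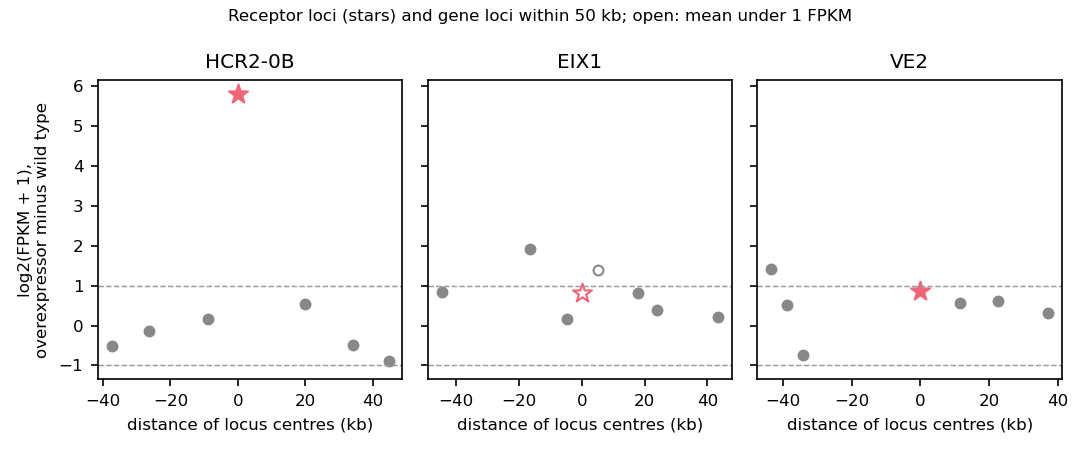
Differences of log2(FPKM + 1), overexpressor minus wild type, against distance in kb, for HCR2-0B, EIX1 and VE2 (stars) and the gene loci within 50 kb of each (circles). Open symbols have a mean under 1 FPKM, and dashed lines mark 2-fold. HCR2-0B stands alone among neighbours between -0.90 and 0.55; its plotted value of 5.82 rests on a wild-type value listed at 0 and is no fold.

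Among the other receptor-like proteins with leucine-rich repeats, HCR9-NL0D alone had its larger value in wild type as deposited. The rest were low loci. HCR9-SC0A, a homologue of the Cf-9 resistance gene (chromosome 1, 3972616 to 3975213), had a wild-type level of 0.763 FPKM and one of 3.60 in SlRBZ leaves. It was 2.61-fold higher in FPKM + 1, a difference of 1.38. Its counting intervals (0.271 to 1.69, and 2.68 to 4.73) do not meet. At most 13.7 fragments stand behind the wild-type value. HCR9-NL0D, another Cf-9 homologue whose locus is joined with Solyc01g005730.2 (chromosome 1, 490584 to 499371), read 32.2 and 25.3 FPKM, a difference of -0.33. These loci thus differed in opposite directions as deposited, and at equal upper quartiles (HCR9-NL0D -0.09). At equal sums without the 100 most abundant gene loci both were above 0, HCR9-NL0D at 0.31 and HCR9-SC0A at 1.63. The locus holding HCR9-NL0D was the more abundant in both libraries, but its FPKM cannot be split between the joined genes. Both Cf-9 homologues belong to a family of similar copies among which reads can divide.

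VE2 lies at the locus for resistance to Verticillium wilt (chromosome 9, 48645 to 52064). It read 1.48 FPKM in wild-type leaves and 3.57 in SlRBZ leaves, a difference of 0.88. That is just short of the 2-fold limit on FPKM + 1, although the FPKM themselves are more than 2-fold apart. EIX1 and EIX2 encode receptors for a fungal xylanase, of which EIX2 is known to transmit the signal and EIX1 to dampen it. EIX1 (chromosome 7, 3569571 to 3572666) had 0.255 FPKM in wild-type leaves and 1.20 in SlRBZ leaves, at most 5.52 and 49.7 fragments. EIX2 (chromosome 7, 3574842 to 3577907) was listed at 0 and read 1.62 FPKM. Both lay below the limit of 1 FPKM on the mean and are neighbours of similar sequence, so their values are uncertain singly.

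BTI9 and PRF, receptors of other classes, were less than 2-fold apart. BTI9, a LysM receptor-like kinase also named LYK1 and a target of the bacterial effector AvrPtoB, shares its locus with Solyc07g049190.2 (chromosome 7, 56760988 to 56771407). It read 12.4 FPKM in wild-type leaves and 16.0 in SlRBZ leaves, a difference of 0.35 with overlapping counting intervals. PRF, the intracellular receptor that acts with Pto (chromosome 5, 6376195 to 6386982), read 78.7 and 57.1 FPKM, a difference of -0.46 with counting intervals (72.5 to 85.3, and 53.2 to 61.1) that do not meet. PRF was the most abundant receptor locus of both libraries, although in the overexpressor its counting interval overlapped that of HCR2-0B.

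Among the 6 receptors that reached 1 FPKM, the median difference was 0.62, with 2 higher and none lower, beside 11.6% and 15.0% of all gene loci. The 2 higher, HCR2-0B and HCR9-SC0A, reached that mean only through the overexpressor, so the count gives no support to a direction. Without the locus listed at 0 the median was 0.35 over 5 loci. When a mean of 5 FPKM was required, which drops HCR9-SC0A and VE2, it was 0.0098. The receptor median thus rested on low loci.

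The Pto kinase gene and its relative FEN lie beside PRF on chromosome 5. Pto binds the bacterial effectors AvrPto and AvrPtoB and thereby triggers Prf, and Fen is a close relative that confers sensitivity to the insecticide fenthion. PTO (6403684 to 6405292) read 9.20 FPKM in wild-type leaves and 7.63 in SlRBZ leaves, a difference of -0.24. FEN (6387271 to 6388550) read 1.52 and 2.59 FPKM, a difference of 0.51. Both pairs of counting intervals overlapped, at most 12.3 fragments stand behind FEN in wild type, and reads can divide between these similar genes.

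The 3 SERK co-receptors were the flattest group. SERK3A, the tomato BAK1, read 11.0 FPKM in wild-type leaves and 13.1 in SlRBZ leaves. SERK3B read 29.1 and 30.3, and SERK1 12.1 and 12.8. Their differences ran from 0.06 to 0.23 and all 3 pairs of counting intervals overlapped. SERK3B stood above the other two in both libraries by more than the counting intervals, whereas SERK1 and SERK3A were not apart in either.

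Of the 15 MAP kinase loci 2 passed the limit upward and none downward, beside 11.6% and 15.0% of all gene loci. The upward share is near the background. The median difference was 0.02, in a range from -0.63 to 1.63. MAPK4 (chromosome 11, 52945837 to 52949755) read 2.62 FPKM in wild-type leaves and 10.2 in SlRBZ leaves. It was 3.10-fold higher in FPKM + 1, the largest difference among the kinases, with counting intervals of 1.59 to 4.07 and 8.63 to 12.0. MAPK8 (chromosome 2, 42513397 to 42516677) read 6.14 and 13.8 FPKM, 2.07-fold higher. MAPK7 (chromosome 8, 61696989 to 61700299) read 2.76 and 6.51 FPKM. It fell just short of the limit at 1.996-fold in FPKM + 1, although the FPKM themselves are more than 2-fold apart. These are 3 of the 4 lowest MAP kinase loci in wild type, and the fourth, MAPK16, read 4.26 and 5.74 FPKM.

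The MAP kinases best known from tomato defence were not among those higher. MPK1 and MPK2, close relatives that act in systemin and resistance signalling, read 23.4 and 30.0 FPKM in wild-type leaves and 23.3 and 19.0 in SlRBZ leaves. MPK2 thus had the most negative difference of the family, -0.63, and MPK1 one of -0.01. MPK3, which is activated by wounding and pathogens, read 27.6 and 23.2 FPKM, a difference of -0.25. The counting intervals of MPK1 and MPK2 overlapped in both libraries. MPK2 had the larger value in wild type and MPK1 in the overexpressor. Whether they differ from each other by more than counting error was not tested, and overlap alone does not show that they agree. In neither library did their intervals meet that of MAPK14, the most abundant MAP kinase, which read 53.8 and 54.3 FPKM.

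The remaining MAP kinases are given by value. MAPK6 read 24.3 FPKM in wild-type leaves and 17.4 in SlRBZ leaves, and MPK9 36.5 and 28.1. MAPK12 read 32.1 and 27.8 FPKM, MAPK13 31.8 and 34.6, and MAPK5 8.56 and 8.26. MAPK10 read 13.7 and 16.2 FPKM, and MAPK11 13.0 and 15.2. None of these 7 differences exceeded 0.46 in size. MEK1, a MAP kinase kinase that activates enzymes of this class, read 28.4 and 26.4 FPKM, a difference of -0.10.

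Direction within the MAP kinases depends on the scale of the libraries: 8 of 15 differences were above 0 as deposited, 11 at equal upper quartiles, and all 15 at equal sums, with or without the 100 most abundant loci. Relative to the median of all gene loci, the median of all 26 kinase members moved little. It was 0.00 against -0.05 as deposited, and 0.64 against 0.54 on the scale without the 100 most abundant.

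**Figure D3:**
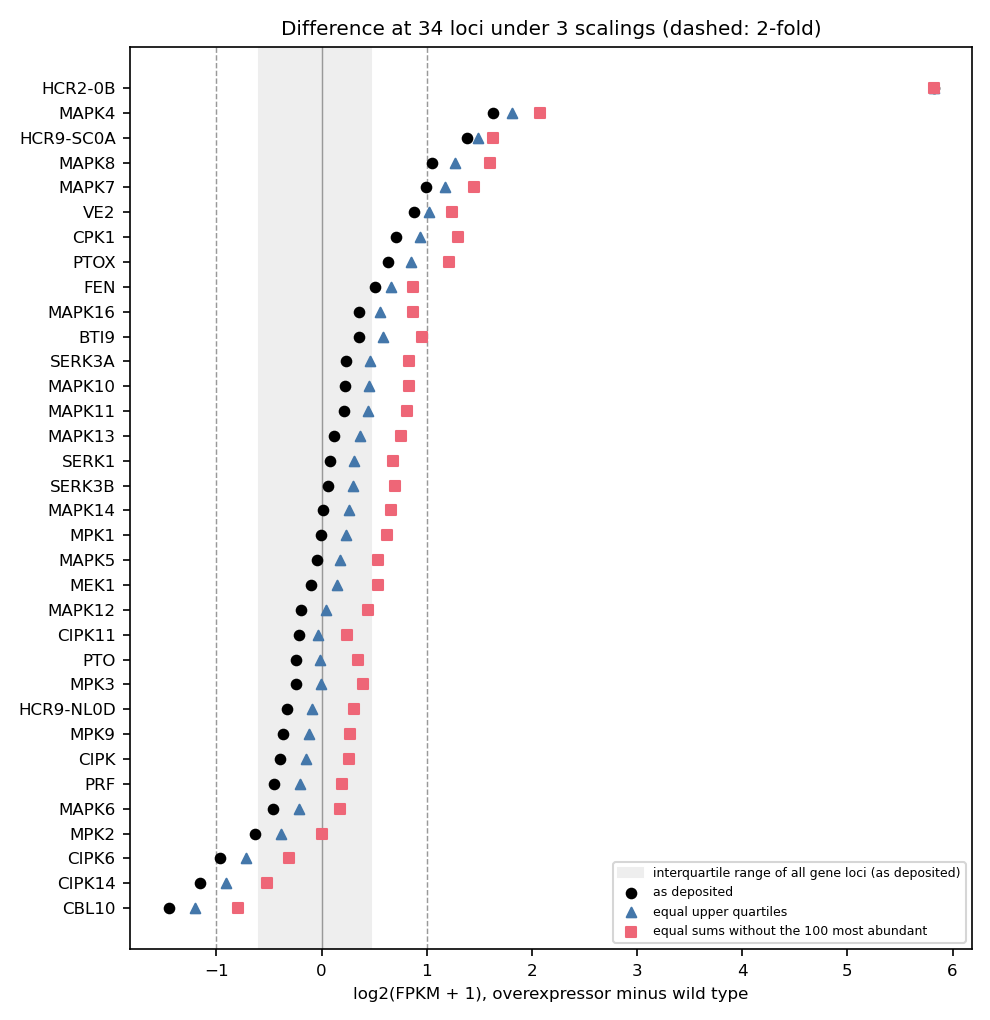
Difference of log2(FPKM + 1), overexpressor minus wild type, for the 34 loci averaging 1 FPKM or more, as deposited (circles), at equal upper quartiles (triangles) and at equal sums without the 100 most abundant gene loci (squares). The grey band is the interquartile range of all gene loci as deposited, and dashed lines mark 2-fold. The order of the loci is nearly kept while the set shifts upward; HCR2-0B stays in place because scaling cannot move its wild-type value of 0.

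Calcium sensing held the most abundant members and those that were lower. CBL10, a calcineurin B-like calcium sensor known for salt tolerance (chromosome 8, 50446637 to 50455805), read 478 FPKM in wild-type leaves and 174 in SlRBZ leaves. It was 2.74-fold lower, a difference of -1.45, and it was the highest of the 36 in both libraries. CIPK6, a kinase that CBL sensors bind (chromosome 12, 3266711 to 3268517), came next with 176 and 89.4 FPKM, a difference of -0.97, just short of the limit. In tomato the products of CBL10 and CIPK6 are known to act together in the cell death set off by Pto, so both partners of that pair had their larger value in wild type.

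The other CIPK loci lay on the same side. CIPK14, whose locus is joined with Solyc10g085440.1 (chromosome 10, 63945590 to 63947355), had 36.3 FPKM in wild-type leaves and 15.7 in SlRBZ leaves. It was 2.23-fold lower, at a locus whose FPKM cannot be split between the joined genes. CIPK, the SOS2 kinase of salt tolerance also numbered CIPK24, read 53.2 and 40.3 FPKM, and CIPK11 read 2.74 and 2.22, with overlapping counting intervals (1.68 to 4.21, and 1.51 to 3.14). All 4 CIPK differences were below 0 (median -0.68) as deposited and at equal upper quartiles, where that of CIPK11 was -0.04. At equal sums without the 100 most abundant loci 2 of the 4 were above 0, and neither CIPK14 (-0.51) nor CBL10 (-0.79) was then 2-fold lower, although both still lay below the shifted median of all gene loci. At equal sums over all loci, which moved the median of all gene loci to 2.24, CBL10 and the 4 CIPK differences were above 0 but below that median, except CIPK at 2.37. CPK1, a calcium-dependent kinase that senses calcium itself, went the other way at 9.69 and 16.5 FPKM, a difference of 0.71.

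The level of a locus went with its direction across the whole table, not only among these genes. Of 3000 gene loci averaging from 1 to 5 FPKM, 26.5% were higher and 6.30% lower. Of 6898 from 5 to 20 FPKM, 10.2% were higher and 8.57% lower. Of 5528 from 20 to 100 FPKM, 7.36% were higher and 18.0% lower, and of 2205 at 100 FPKM or more, 6.12% were higher and 39.5% lower. The members followed the same order: the median difference was 0.88 over the 5 lowest, 0.29 over the next 12 (PTOX among them), -0.25 over the next 15, and -1.21 over the 2 highest, CIPK6 and CBL10. The level here is the mean of the same 2 values as the difference. A locus can therefore enter a range through 1 library only, as HCR9-SC0A and HCR2-0B did through the overexpressor. The order of the members thus gives no independent support to a link of level and direction. The higher values of VE2 and FEN, from 1 to 5 FPKM in both libraries, lay on the side where most called loci of their level lay, whereas CIPK11 (-0.22) did not. The lower value of CBL10 also lay on the side of its level. HCR9-SC0A, MAPK7 and CIPK6 lay in their range in 1 library only, so their side cannot be set against that of their level. MAPK4 and MAPK8 fall in the range from 5 to 20 FPKM, where the higher and lower shares were close. MAPK8 lay in that range in both libraries. MAPK4 reached it only through its overexpressor value of 10.2 FPKM, beside 2.62 in wild type, so its side cannot be set against that of its level. HCR2-0B falls in the range from 20 to 100 FPKM only through its overexpressor value. A wild-type value of 0 there always gives a higher call, so its side cannot be set against that of its level.

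**Figure D4:**
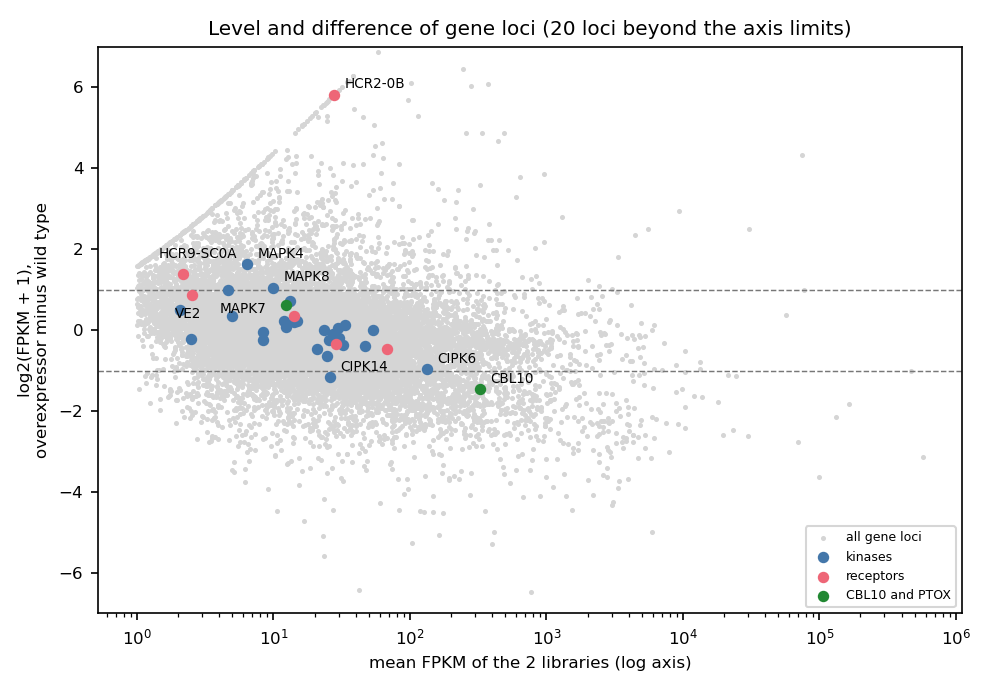
Difference of log2(FPKM + 1), overexpressor minus wild type, against mean FPKM (log axis) for all gene loci averaging 1 FPKM or more (grey), kinases (blue), receptors (red), and CBL10 and PTOX (green). Dashed lines mark 2-fold, and 20 loci lie beyond the axis limits. Members with low means tend to lie above 0 and the most abundant below, as the grey cloud does, and HCR2-0B lies on the line of loci listed at 0 in wild type.

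A list of other immune and kinase signalling symbols held 19 loci, 18 of them averaging 1 FPKM or more. Of these 1 was higher and none lower, beside the background shares given above, with a median difference of 0.11. The locus that was higher, ASC-1, is the gene for resistance to Alternaria stem canker, a ceramide synthase relative. It read 1.15 FPKM in wild-type leaves and 4.71 in SlRBZ leaves, 2.66-fold higher in FPKM + 1. NIM1, the tomato NPR1 that relays salicylic acid signals, read 11.4 and 18.5 FPKM, a difference of 0.65. PTI6, a transcription factor that binds Pto, read 6.99 and 11.3 FPKM, a difference of 0.62.

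The 3 most negative differences of that list were those of SNF1, WRKY3 and PDK1. SNF1, the kinase that responds to energy shortage, read 44.9 FPKM in wild-type leaves and 26.4 in SlRBZ leaves, a difference of -0.75. PDK1, a kinase upstream of the cell death suppressor ADI3, read 784 and 487 FPKM, a difference of -0.69, whereas ADI3 itself read 5.24 and 5.28, a difference of 0.01. WRKY3, a transcription factor, read 36.9 and 22.4 FPKM, a difference of -0.69.

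The intracellular resistance genes of that list did not move together. BS4, which recognises a bacterial effector, shares its locus with Solyc05g007840.2 and read 26.8 FPKM in wild-type leaves and 18.0 in SlRBZ leaves. SW5-C, a homologue at the locus for tospovirus resistance, read 2.28 and 4.46 FPKM. The locus of the Tm-2 gene for tobamovirus resistance was listed at 0 in wild type and read 1.66 FPKM in the overexpressor. Of the 5 such loci averaging 1 FPKM or more, 3 differences were above 0 and 2 below, and none was 2-fold.

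Symbols that carry a species prefix escape the family names used to choose the members, and 8 of them were added after the table had been seen. WFI1, an NADPH oxidase gene named for induction by whitefly, read 2.71 FPKM in wild-type leaves and 12.7 in SlRBZ leaves, 3.71-fold higher. LEMKK3, a MAP kinase kinase, read 3.82 and 10.4 FPKM, 2.37-fold higher. The kinase kinases LEMKK2 (23.8 and 25.7 FPKM) and LEMKK4 (10.2 and 13.0 FPKM) had overlapping counting intervals.

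Among the prefixed calcium genes none was 2-fold apart. LECDPK2, a calcium-dependent kinase, read 8.53 FPKM in wild-type leaves and 14.6 in SlRBZ leaves, a difference of 0.71 like that of CPK1. SLCIPK2 read 25.5 and 19.3 FPKM, on the side of the other CIPK loci. The sensors SLCBL1 (28.0 and 33.0 FPKM) and SLCBL2 (46.2 and 40.3 FPKM) had overlapping counting intervals, unlike CBL10. The 2 calls of these 8 stand beside 11.6% of all gene loci that were higher, and they fell on the loci with the lowest wild-type levels of the 8.

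**Figure D5:**
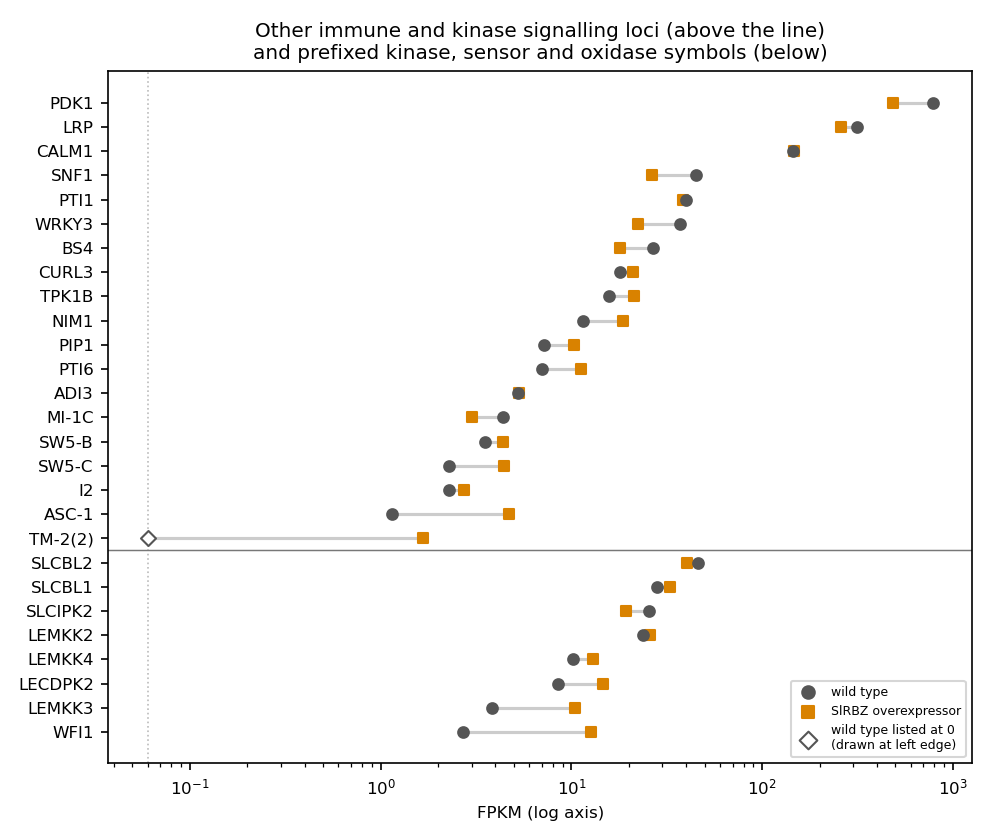
FPKM (log axis) of the 19 other immune and kinase signalling loci (above the line) and the 8 prefixed symbols (below), in wild type (circles) and the SlRBZ overexpressor (squares), with a value listed at 0 as an open diamond. ASC-1, WFI1 and LEMKK3 are the 3 loci at least 2-fold higher among those averaging 1 FPKM or more.

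PTOX, the plastid terminal oxidase caught by its spelling, acts in carotenoid synthesis and in chloroplast redox balance rather than in immunity. It read 9.50 FPKM in wild-type leaves and 15.2 in SlRBZ leaves, a difference of 0.63. Leaving it out left the counts of higher and lower members at 4 and 2.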

How the data were processed

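The authors deposited 1 table of FPKM for 22315 loci, per the file headers, with a column for each of 2 libraries, both tied to a sample by title (0 columns left untied). The submitters' processing notes name TopHat. Those sources give no version, counting tool, genome build or annotation. Coordinates are those of the table. At 871 loci several genes are joined. Symbols were looked up in a RefSeq gene table (assembly SLM_r2.1), where 30 of the 36 members matched.

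Differences, filter and calls were computed with Python 3.11.15, numpy 2.4.6 and pandas 2.3.3. With 1 library per genotype no test was run. Fragment totals were fitted on gene-free loci without strand, of at least 400 bp, from the step of the FPKM values: whole numbers within 0.02 fragments were 93.0% of 739 low wild-type values and 83.9% of 174 from the overexpressor, at a length offset of 199 bp. The fit was tested on simulated data. Upper bounds on fragments take the whole span as counted. For other scalings wild-type FPKM was divided by a factor.

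Members and lists were chosen with earlier results of these data known. Every member is named. Of the other signalling list, the 8 largest differences above 0 FPKM in both libraries and any locus listed at 0 are named. ADI3 is named beside PDK1, outside that rule. Alternatives covered pseudocount, filter, scaling, joined loci, zeros and copies.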

Additional observations from a re-analysis of the deposited data

How the results depend on the processing

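As deposited, 4 members were higher and 2 lower, beside 2043 and 2647 of all gene loci. With a pseudocount of 5 the members were 1 and 1 and higher gene loci 977. At a mean of at least 5 FPKM, higher gene loci were 1249 and the receptor median 0.0098. At equal upper quartiles 6 members were higher and 1 lower, and gene loci split 2666 against 1908. MAPK7 and VE2 were the members gained there and also with a pseudocount of 0.1 (6 higher); without the 100 most abundant loci CPK1 and PTOX were gained as well. At equal sums without the 100 most abundant loci the members were 8 and 0, gene loci 4572 and 1100, the other list had 6 higher, and the medians were 0.64 (kinases) and 1.10 (receptors). At equal sums over all loci, a scale set by a gene-free locus of 34 bp with 89.8% of the wild-type sum, all 34 members and 18 of the other list were higher and 0 lower, gene loci split 16441 against 42, the medians were 2.44 and 2.34, and CIPK14 (1.53) and CBL10 (1.45) reversed. Without joined loci 1 member was lower and the receptor median was 1.13. The other list had 0 higher with a pseudocount of 5 or the filter of 5 FPKM, and 2 without a filter. The causes were not tested beyond the construction of each setting. With a pseudocount of 5, HCR9-SC0A (0.58), MAPK4 (0.998), MAPK8 (0.75) and CIPK14 (-0.99) were no longer 2-fold, and CIPK14 (-0.91) was not at equal upper quartiles. No scaling can move HCR2-0B, whose wild-type value is 0, and its value (3.60 to 9.12) reflects only the pseudocount. No paired analysis was possible because each genotype has 1 library. Counting in the shallower wild-type library limits every locus under 5 FPKM.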

Other observations

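EIX1 on chromosome 7 had 7 gene loci within 50 kb, EIX2 among them. The 6 with a mean of at least 1 FPKM had differences above 0, from 0.17 to 1.93. The largest belonged to Solyc07g008600.1 (3553058 to 3556042), chosen after its values were seen. It read 0.126 FPKM in wild-type leaves and 3.29 in SlRBZ leaves. Solyc07g008570.2 read 0.583 and 1.83 FPKM. Both loci reached that mean only through the overexpressor, so the filter fixed their side. Of all gene loci with such a mean, 8328 of 17631 were above 0. Those averaging from 1 to 5 FPKM were more often higher (26.5%) than lower (6.30%). The count of 6 therefore gives no support to a shared direction around EIX1. Around VE2 the 6 gene loci within 50 kb ran from -0.75 to 1.43, with 1 of them 2-fold higher. Around HCR9-NL0D 1 of 9 was 2-fold higher, at 1.09. No gene locus lay within 50 kb of HCR9-SC0A, so it has no neighbour for comparison. Around PRF the 5 neighbouring loci, FEN and PTO among them, ran from -0.24 to 0.51.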
